A study of Homo sapiens with 3 samples.

Results

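HMGA1 and HMGA2 encode architectural proteins of chromatin, and the peaks of the AP-1 subunits Fra-1 and Fra-2 at both genes were taken from chromatin immunoprecipitation followed by sequencing (ChIP-seq) in MDA-MB-231 cells. A peak was taken when its centre lay in the gene body or within 100 kb of a transcription start site (TSS) of either gene. This gave 8 of the 23001 peaks of the series, 4 of 9998 in the list of Fra-1 and 4 of 13003 in that of Fra-2. HMGA1 had 3 peaks in each list and HMGA2 had 1 in each. MDA-MB-231 is an established human breast cancer line, labelled triple-negative and basal b, grown in medium with 10% serum, with no treatment named. The groups are chromatin precipitated with a Fra-1 antibody, chromatin precipitated with a Fra-2 antibody, and input DNA with no antibody, which was not analysed here. The labels mention 2 independent replicates of each, but there is 1 peak list per antibody, so no value has a spread between replicates and no difference was tested.

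HMGA proteins are small chromatin proteins that do not act as classical transcription activators themselves. They bind the minor groove of AT-rich DNA through short basic segments called AT-hooks, bend it, and help transcription factors to assemble on it. Both genes are active in the embryo and in many tumours, and the HMGA2 messenger RNA is a well-known target of the let-7 microRNAs. Fra-1 (gene FOSL1) and Fra-2 (gene FOSL2) belong to the Fos family and pair with Jun proteins as AP-1, which recognises the element TGACTCA, read as TGAGTCA on the other strand.

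The sequences under the peaks are shown first, because the loci differ in them. All are plus strand, 5′ to 3′, from GRCh37, the assembly behind hg19. The ends in the peak lists were read as 1 base past the last base of a peak, so each stretch stops 1 base earlier. At HMGA1 capitals mark the AP-1 element. The first sequence is the Fra-1 peak upstream of the gene, the next is the Fra-1 peak in the fourth intron, and the third is the last 300 bases of the last intron, which hold both elements of the widest peak.
HMGA1 upstream, chr6:34203451-34203650: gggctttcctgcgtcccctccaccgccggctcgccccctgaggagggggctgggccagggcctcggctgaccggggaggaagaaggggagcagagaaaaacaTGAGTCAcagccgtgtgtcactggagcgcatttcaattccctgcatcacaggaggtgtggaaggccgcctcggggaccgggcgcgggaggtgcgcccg
HMGA1 intron 4, chr6:34210951-34211200: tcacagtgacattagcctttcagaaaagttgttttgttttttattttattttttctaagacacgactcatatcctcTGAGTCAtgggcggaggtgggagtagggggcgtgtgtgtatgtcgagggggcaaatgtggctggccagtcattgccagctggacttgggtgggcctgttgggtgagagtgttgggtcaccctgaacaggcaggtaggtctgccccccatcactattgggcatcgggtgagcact
HMGA1 last intron, chr6:34212308-34212607: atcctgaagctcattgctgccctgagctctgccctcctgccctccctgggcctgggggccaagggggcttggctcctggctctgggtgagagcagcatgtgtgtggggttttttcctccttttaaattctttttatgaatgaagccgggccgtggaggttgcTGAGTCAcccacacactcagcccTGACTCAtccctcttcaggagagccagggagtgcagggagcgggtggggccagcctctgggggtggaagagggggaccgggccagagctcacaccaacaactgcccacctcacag
In the HMGA2 peak, identical in both lists, capitals mark CATTCC, the TEAD core GGAATG on the other strand, and TGAATCA, which departs from the AP-1 element at 1 base.
HMGA2 upstream, chr12:66173001-66173200: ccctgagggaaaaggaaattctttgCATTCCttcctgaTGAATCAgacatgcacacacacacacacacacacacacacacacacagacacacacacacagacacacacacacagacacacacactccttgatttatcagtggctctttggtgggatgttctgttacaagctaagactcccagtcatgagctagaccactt

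Both genes had peaks of both lists, at a different scale of distance. HMGA1 (chromosome 6, 34204650 to 34214008, plus strand, 9.36 kb) had all of its peaks within 9.20 kb of sequence, from just upstream of the gene into its last exon. HMGA2 (chromosome 12, 66218240 to 66360071, plus strand, 141.8 kb) had none in the gene and a single shared peak 45.1 kb upstream of its first TSS. By the same rule 45.4% of the 19756 protein-coding genes tested were in reach of Fra-1 and 58.6% of Fra-2, and 42.8% of both, so having a peak in reach is common. At least 3 peaks, as at HMGA1, were found at 11.8% of genes for Fra-1 and 20.6% for Fra-2. Exactly 1 peak, as at HMGA2, was found at 22.1% and 24.1%.

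**Figure D1:**
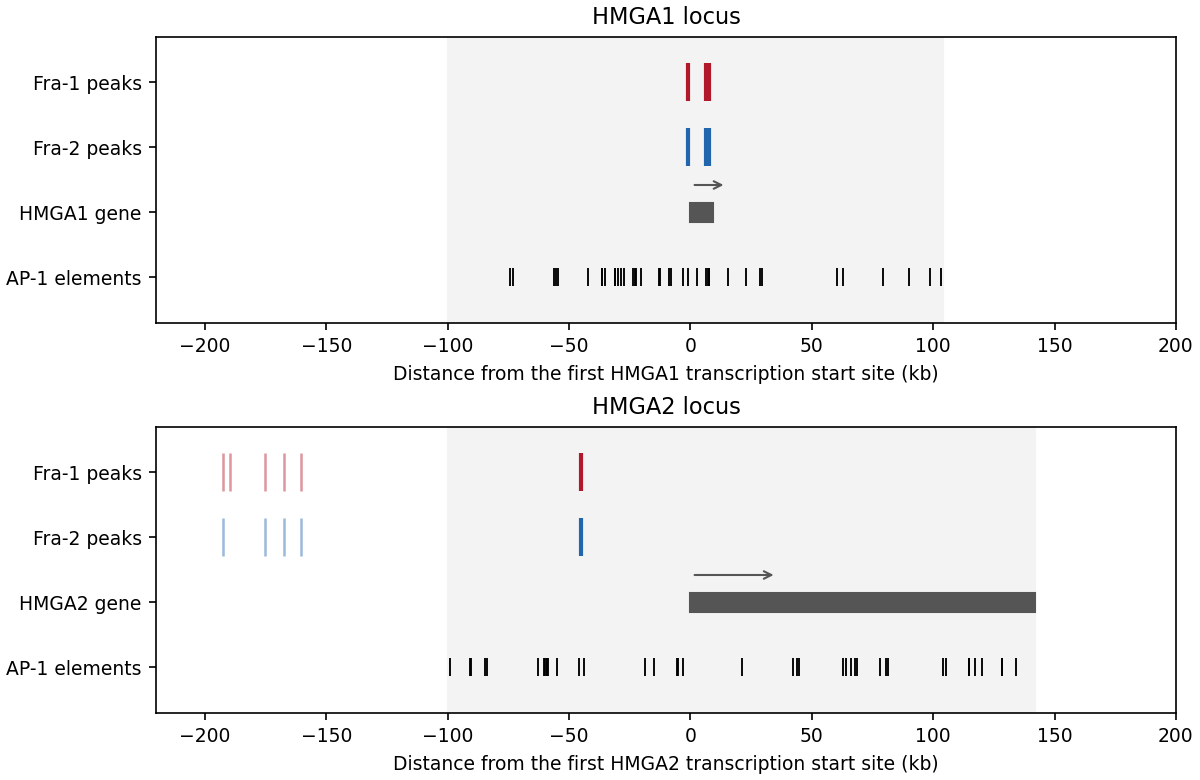
Position of peak centres (ticks, not to scale in width) and of AP-1 elements around the first TSS of each gene, in kb; grey shading marks the region of the rule, and paler ticks are peaks outside it. At HMGA1 the 3 peaks of each list crowd at the gene, whereas at HMGA2 the gene is empty and the nearest peak lies 45.1 kb upstream.

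The first HMGA1 site lay upstream of the gene. Its Fra-1 peak ran from 34203451 to 34203651, 200 bp, and its Fra-2 peak from 34203501 to 34203601, 100 bp, the narrowest width in that list. Both were centred on the same base, 1.099 kb upstream of the first TSS of HMGA1. The TSS of an unnamed lncRNA gene was slightly nearer, at 0.974 kb. The nearest TSS of another protein-coding gene, SMIM29, was 13.2 kb away.

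The second site lay in the fourth of 5 introns of the annotated coding transcript drawn in the map of the gene. Its Fra-1 peak, from 34210951 to 34211201, was 250 bp wide and its Fra-2 peak, from 34210951 to 34211151, was 200 bp wide. The centres were 6.43 and 6.40 kb downstream of the first TSS, and 2.56 and 2.54 kb from the last of the 5 annotated TSSs of the gene. Neither peak touched an exon.

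The third site was the widest of the locus. Its Fra-1 peak spanned 750 bp and its Fra-2 peak, from 34211951 to 34212651, spanned 700 bp. In the nuclear part of each list only 8 of 9970 Fra-1 peaks (0.0802%), and for Fra-2 only 10 of 12993 (0.077%), were at least that wide, the HMGA1 peaks included, against a median of 150 bp. Counted by gene, the widest peak in reach was at least that wide at 0.116% of protein-coding genes for Fra-1 and 0.202% for Fra-2. HMGA1 is included, and a wide peak was counted for every gene that had it in reach. Of the Fra-1 peak, 707 bp lay in the last intron and 43 bp in the last exon, and those 43 bp were all coding sequence. The next protein-coding TSS, of SMIM29, was 4.49 kb from its centre, hardly farther than the nearest HMGA1 TSS at 3.76 kb. All 6 HMGA1 peaks were also in reach of SMIM29 and of GRM4, a glutamate receptor gene with a TSS 80.2 to 88.9 kb away, so the counts do not assign them to HMGA1 alone.

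**Figure D2:**
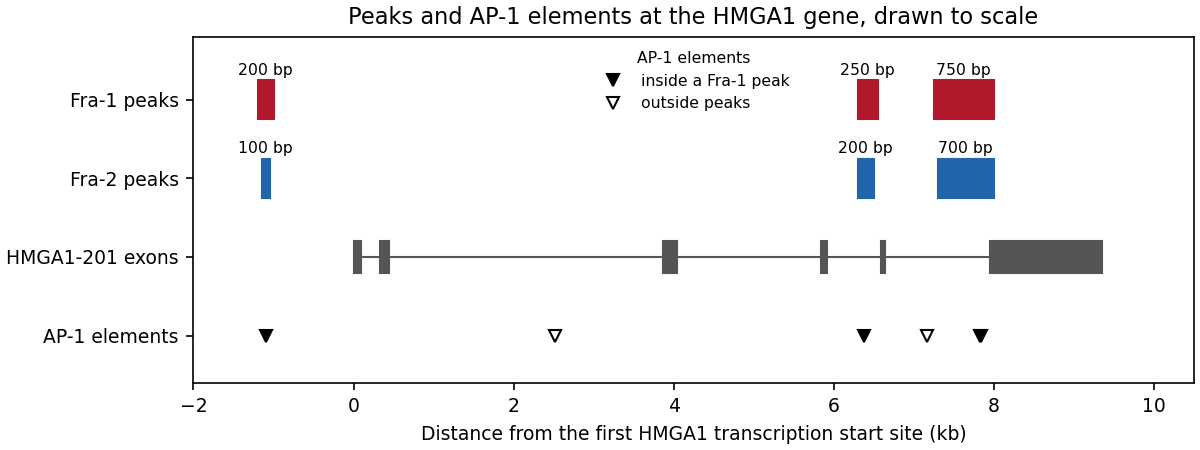
Fra-1 and Fra-2 peaks at HMGA1 drawn to scale with their widths, the exons of an annotated coding transcript (grey boxes) and AP-1 elements (triangles, filled inside a Fra-1 peak), by distance in kb from the first TSS. Peaks of both lists fall at 3 sites, and the widest, of 750 bp (Fra-1) and 700 bp (Fra-2), ends in the last exon.

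Both HMGA1 introns with peaks were close together. Their Fra-1 peaks were 700 bp apart from edge to edge and their Fra-2 peaks 800 bp. Among gaps between neighbouring peaks, 14.5% (Fra-1) and 12.5% (Fra-2) were of at most 800 bp. HMGA1 thus had 2 peaks of each list centred in a gene of under 10 kb. Of 5169 protein-coding genes of at most 10 kb, 8 (0.155%) had at least 2 Fra-1 peaks centred in the gene body and 14 (0.271%) at least 2 Fra-2 peaks. HMGA1 is included in both counts, and this comparison was not planned beforehand. Over genes of any length 12.6% had at least 1 Fra-1 peak centred in the body and 17.5% at least 1 Fra-2 peak. Whether neighbouring peaks are separate sites was not tested.

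The HMGA2 peak had the same start and end in both lists, 66173001 to 66173201, 200 bp. It lay in an intron of RPSAP52, a transcribed processed pseudogene on the opposite strand whose gene reaches across the HMGA2 start, and 20.3 kb from the nearest TSS of that gene. The nearest protein-coding TSS was that of HMGA2, and the next, of LLPH, was 351.4 kb away. In contrast to HMGA1, no other protein-coding gene had this peak in reach. Of 3585 protein-coding genes of at least 100 kb, 62% had no Fra-1 peak centred in the gene body and 54.7% no Fra-2 peak, so an empty gene body of this length was common.

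Peaks just outside the rule changed the picture at HMGA2 more than at HMGA1. Between 100 and 200 kb upstream of HMGA2 lay 5 Fra-1 and 4 Fra-2 peaks, from 160.6 to 192.7 kb before the first TSS for Fra-1, within 32.5 kb of sequence. They were 250 to 400 bp wide (Fra-1) and 100 to 350 bp wide (Fra-2). Of the 5 Fra-1 peaks 4 were shared, beside 80.4% of the nuclear Fra-1 list, and all 4 Fra-2 peaks were, beside 61.6% of the nuclear Fra-2 list. An AP-1 element lay inside 4 of the 5 peaks for Fra-1 and inside 3 of the 4 for Fra-2. Over the nuclear lists it lay inside 55.5% and 65.2% of peaks, and with so few peaks no difference was tested. The median width of either list is 150 bp, and width was not taken into account in these shares. HMGA2 was the nearest protein-coding gene by TSS to each peak of the group. The widest Fra-1 peaks, from 66025351 to 66025751 and from 66050651 to 66051051, lay in an unnamed lncRNA gene. The peak from 66025351 lay in the gene MSRB3-AS1 as well. Around HMGA1 the nearest peaks outside the rule were 351.5 kb from a TSS on the upstream side in both lists, and 681.6 kb for Fra-1 and 320.1 kb for Fra-2 on the downstream side.

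The gaps to the next peaks around both loci were longer than the median gap of each list. After the HMGA2 peak the next peak of either list on chromosome 12 started 2.05 Mb farther on, beyond the gene, and 2.23% of the gaps in the Fra-1 list and 1.48% of those in the Fra-2 list were as long. The group upstream of HMGA2 ended 115.2 kb before the peak in the Fra-1 list. At HMGA1, 350.3 kb without a peak lay before its first site in both lists. After its last site lay 677.4 kb (Fra-1) and 315.9 kb (Fra-2), against median gaps of 68.7 and 54.2 kb. The share of gaps as long as those at HMGA1 was not counted. The next Fra-2 peak after HMGA1, from 34528501 to 34528651, was not shared, and its nearest protein-coding gene was SPDEF, an ETS family gene. These gaps were measured after the peaks had been seen.

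All 8 peaks overlapped a peak of the other list by at least 1 bp, as did 80.4% of the nuclear Fra-1 list and 61.6% of the nuclear Fra-2 list, or 80.5% and 57.8% of the peaks in reach of a protein-coding gene. The overlap was 100 bp at the upstream HMGA1 site, 200 bp in the fourth intron, 700 bp in the last intron and 200 bp at HMGA2, and the centres were 0, 25, 25 and 0 bp apart. In all 4 pairs the Fra-2 peak lay within the bounds of the Fra-1 peak, with equal bounds at HMGA2. Among 7909 pairs of nuclear peaks that overlapped one another and no further peak, this held for 59.3%, the reverse for 74.1%, and equal bounds for 38.1%. This comparison was chosen after the peaks had been seen.

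**Figure D3:**
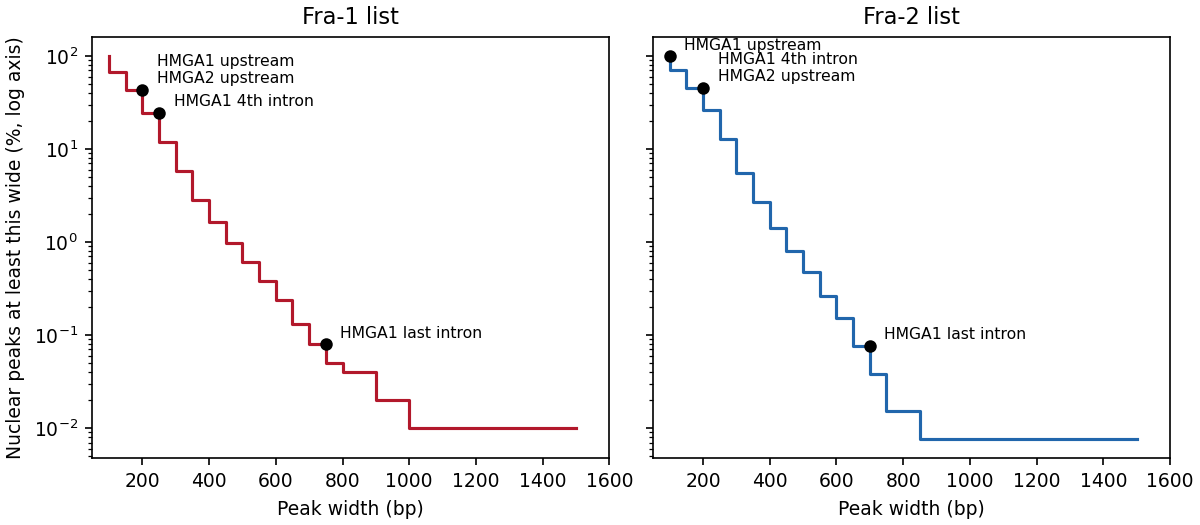
Share of nuclear peaks (percent, log axis) at least as wide as the width on the x axis (bp), for each list, with the peaks of HMGA1 and HMGA2 as black points. The last intron of HMGA1 sits at 0.0802% for Fra-1 and 0.077% for Fra-2, while the other points lie at 24.5% or above.

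AP-1 elements lay in every HMGA1 site and not in the HMGA2 peak; a match describes the letters there and is no evidence of a bound site. At the upstream site the element lay at 34203553 to 34203559, 5 bp from the centre of both peaks. In the fourth intron it lay at 34211027 to 34211033, 46 bp from the Fra-1 centre and 21 bp from the Fra-2 centre. Both were within 100 bp of the centre, as in 56.7% of the nuclear Fra-1 list and 67.4% of the nuclear Fra-2 list. Inside the peak bounds the element was present at all 3 HMGA1 sites in each list, against 55.5% of the Fra-1 and 65.2% of the Fra-2 list.

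The widest HMGA1 peak held 2 elements, and both were off its centre. They lay at 34212470 to 34212476 and 34212493 to 34212499, in opposite orientation, 23 bases from start to start with 16 bases between them. Their middles were 197 and 220 bp from the Fra-1 centre and 172 and 195 bp from the Fra-2 centre, on the side of the last exon, with 108 bases between the second element and its start. A window of 100 bp to each side of the centre thus counted this peak as lacking the element. The same was true of 16.4% of 580 Fra-1 peaks at least 350 bp wide, and of 15.5% of the 710 such peaks for Fra-2. At least 2 elements were inside 13.4% of the whole Fra-1 list and 12.6% of the Fra-2 list, and inside 39.1% and 46.1% of those at least 350 bp wide. Elements at most 23 bases apart from start to start were in 3.91% and 3.35% of all nuclear peaks.

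The HMGA2 peak held no TGACTCA on either strand. Its nearest match was TGAATCA at 66173039 to 66173045, 59 bp from the centre, the substitution C4A counted from the first base of TGACTCA. Words at 1 mismatch, at any position, were in 58.8% of nuclear Fra-1 and 55.6% of Fra-2 peaks that lacked the element. A match of that broad kind is thus common, but a change at the centre base alone, as in TGAATCA, is a narrower class. TGANTCA, with any centre base, was inside 64.5% of nuclear Fra-1 and 73.6% of Fra-2 peaks. TGACTCA itself was inside 55.5% and 65.2%. Peaks without the element were shared in 71.5% and 68.1% of cases. The TEAD core GGAATG, bound by the partners of the coactivators YAP and TAZ, lay 7 bases before TGAATCA. This core was inside 24.4% of nuclear Fra-1 and 21.2% of Fra-2 peaks.

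HMGA1 peaks held words close to the element as well. The fourth intron had CGACTCA, with the substitution T1C, at 34211013 to 34211019, 7 bases before the intact element. In the last intron the Fra-1 peak held 5 such words, among them GGAGTCA (A7C) and TCAGTCA (C6G), which overlapped each other 23 to 27 bp from the Fra-1 centre. The Fra-1 peak of the last intron also had 2 TEAD cores, of which 1 was inside the Fra-2 peak. How many such words or cores other peaks of this width hold was not counted. Matches to the other consensus words sought, on both strands, were not found inside any of the 8 peaks. These were the cyclic AMP response element TGACGTCA, the RUNX word TGTGGTT, the forkhead word TGTTTAC, the E-box CAGGTG and the ETS word CCGGAAGT. They were inside 0.201%, 6.75%, 4.72%, 10.9% and 0.351% of nuclear Fra-1 peaks in that order.

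**Figure D4:**
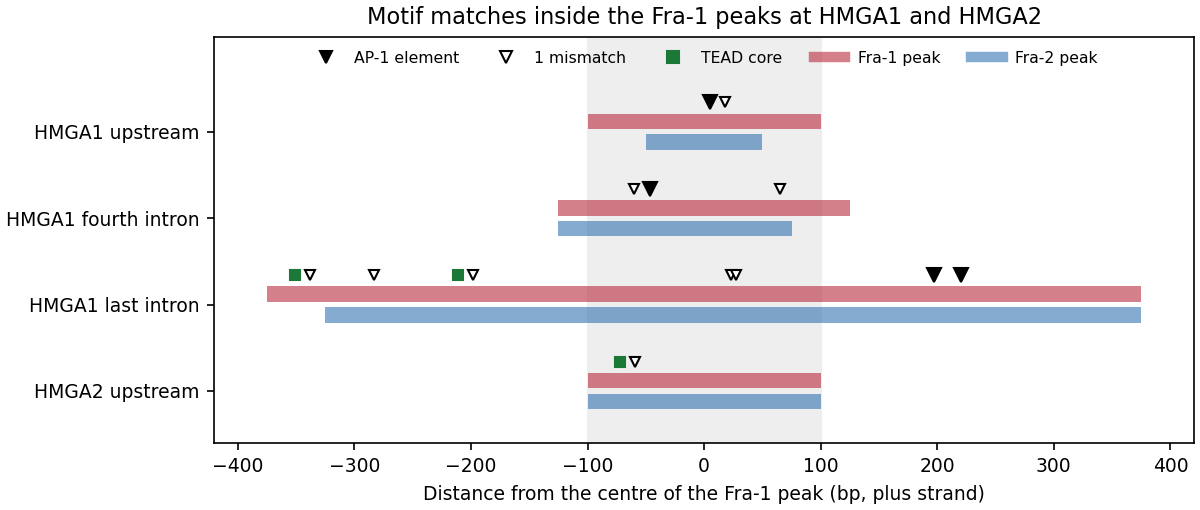
Positions of AP-1 elements (filled triangles), words at 1 mismatch (open triangles) and TEAD cores (squares) inside each Fra-1 peak, by distance in bp from its centre; bars show the extent of the Fra-1 and Fra-2 peaks and shading the 100 bp to each side of the centre. The elements of the last HMGA1 intron lie 197 and 220 bp off the centre, and the HMGA2 peak has a word at 1 mismatch and a TEAD core only.

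Most copies of the element at both loci had no peak. The region of the rule held 39 copies at HMGA1, of which 4 were inside peaks of either list (10.3%), and 40 copies at HMGA2, of which 0 were. Over the nuclear chromosomes 1.56% of 459778 copies were inside a Fra-1 peak and 2.27% inside a Fra-2 peak. These shares include sequence far from genes, and the share in the regions of other genes was not counted. Of the 4 copies in peaks at HMGA1, 2 lay in the same peak, that of the last intron. The HMGA1 gene itself held 5 copies, 3 of them inside peaks, and the HMGA2 gene held 21, none of them inside a peak. None of the TSS windows of either gene, from 250 bases upstream to 50 downstream of 5 HMGA1 and 6 HMGA2 start sites, held the element or met a peak. The element was in 3.89% of 145506 such windows of protein-coding genes, and 0.442% of them met a peak of Fra-1 and 0.871% one of Fra-2, so windows with neither are the common case.

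Base composition varied with the bounds of a peak. The Fra-1 peaks of HMGA1 had a GC content of 68.5% upstream, 51.6% in the fourth intron and 63.5% in the last intron. Within the Fra-2 bounds of the same sites it was 58%, 49.5% and 63.9%. The HMGA2 peak had 46.5%, and the medians over nuclear peaks were 45.5% for Fra-1 and 47% for Fra-2, so the fourth intron of HMGA1 was close to HMGA2 by this measure. The peaks were also searched for words of 36 bases that recur in the assembly. HMGA1 has processed pseudogenes, which derive from spliced RNA. Only 43 bp of the HMGA1 Fra-1 peaks lay in an exon, so the search hardly bears on those copies. All 165, 215 and 715 words of the HMGA1 Fra-1 peaks occurred once. In the HMGA2 peak 119 of 165 words (72.1%) did, and the most frequent had 3374 copies. Its repeated part was a run of alternating CA of 34 bases, 66173052 to 66173085, with further CA stretches after it. Runs of at least 30 bases were inside 0.291% of nuclear Fra-1 and 0.2% of Fra-2 peaks. What part the repeat has in this peak was not tested.

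Other genes of the same families served as background, described by counts alone. Among 9 other HMG genes, 3 had a Fra-1 peak and the same number a Fra-2 peak by the rule, or 33.3%, against 45.4% and 58.6% of all protein-coding genes. They were HMGB2, HMGB1 and HMGN2, with 2, 1 and 1 peaks for Fra-1 and 2 each for Fra-2. HMGB1 and HMGB2 encode HMG-box proteins that bend DNA, and HMGN2 encodes a nucleosome-binding protein. None of these 9 genes had a Fra-1 peak within its body, and 1 had a Fra-2 peak there. The shares for the body were 12.6% (Fra-1) and 17.5% (Fra-2) over the whole protein-coding background. Few such peaks were thus to be found among 9 genes, and no difference was tested.

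Genes of the let-7, LIN28 and IGF2BP axis, which acts on HMGA2 messenger RNA or is regulated with it, had a Fra-1 peak at 6 of 10 members (60%) and a Fra-2 peak at 8 of 10 (80%), beside 45.4% and 58.6% of all protein-coding genes. Within the gene body, 4 of the 10 had a Fra-1 peak and 5 of the 10 a Fra-2 peak, beside 12.6% and 17.5% of all protein-coding genes. With only 10 genes in the list, and gene length not taken into account, no difference from the background was tested. IGF2BP2, an RNA-binding protein known as a target of HMGA2, had 7 Fra-1 and 9 Fra-2 peaks, more than HMGA1 and HMGA2 together. The gene is 181.9 kb long, against 9.36 kb for HMGA1, and 6 of its Fra-1 and 8 of its Fra-2 peaks were in its body. Of 19756 protein-coding genes, 76 had exactly 7 Fra-1 peaks and 101 exactly 9 Fra-2 peaks. Its widest Fra-1 peak started at 185406601 on chromosome 3 and was 300 bp wide. LIN28A, which blocks let-7 maturation, had 2 and 3 peaks. Its widest Fra-1 peak, starting at 26713951 on chromosome 1, was also that of HMGN2. IGF2BP1 had 2 of each.

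Other architectural chromatin proteins had a Fra-1 peak at 5 of 14 genes (35.7%) and a Fra-2 peak at 7 of 14 (50%), beside the same 45.4% and 58.6%. None of the 14 had a peak in its body, where 12.6% of all protein-coding genes had one of Fra-1 and 17.5% one of Fra-2, so few were to be found in a list of this size. SMC3, a cohesin subunit, had 6 Fra-1 and 5 Fra-2 peaks. CTCF, the insulator protein, had 0 and 3, and H1-10 had 1 and 2. Gene length, which ranges widely over these genes, was not taken into account.

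**Figure D5:**
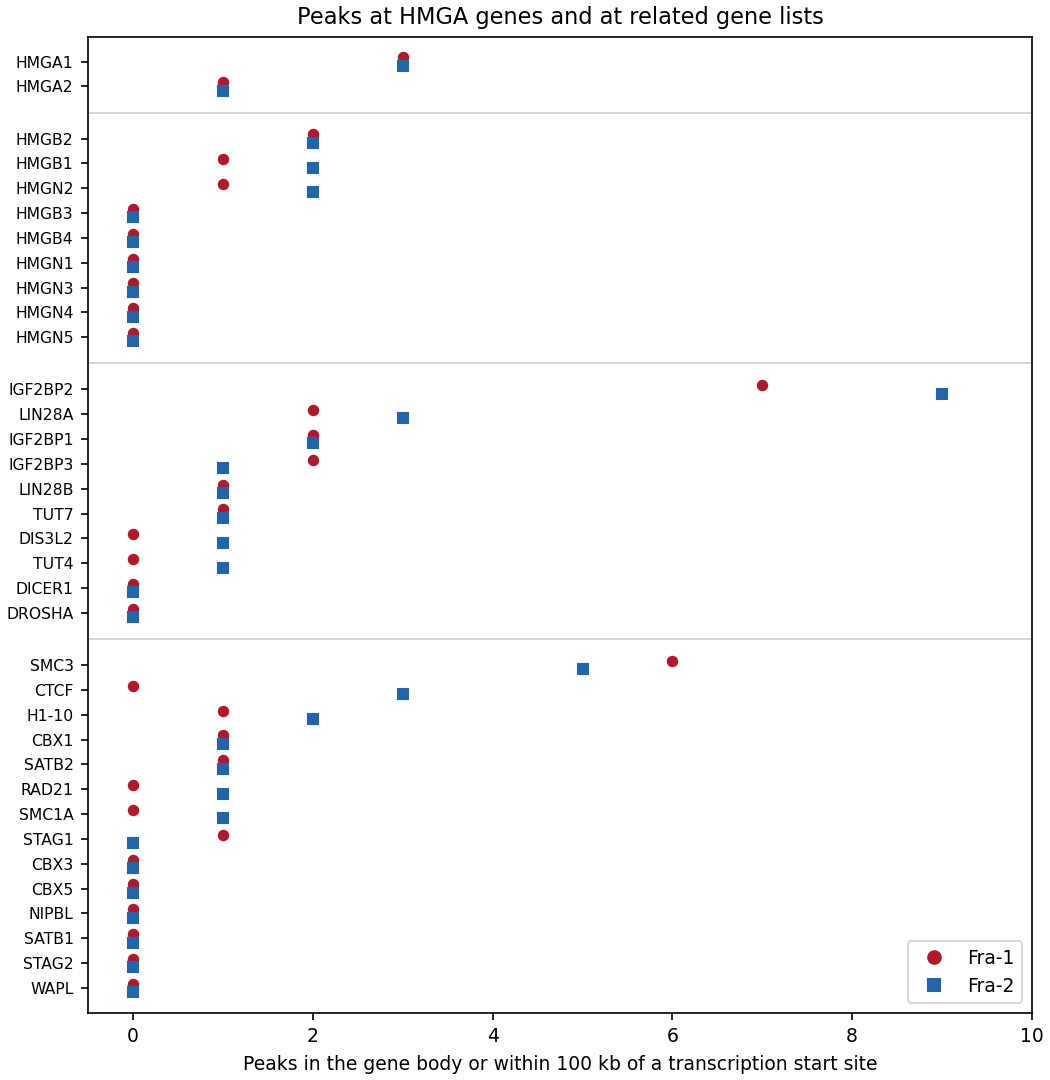
Number of Fra-1 peaks (circles) and Fra-2 peaks (squares) in the gene body or within 100 kb of a TSS, for HMGA1 and HMGA2 (top) and, below, other HMG genes, the let-7, LIN28 and IGF2BP axis, and other architectural proteins. IGF2BP2 stands at 7 and 9 peaks, above HMGA1 at 3 and 3.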

How the data were processed

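Immunoprecipitated DNA was sequenced on an Illumina HiSeq, per the labels. Bowtie2 and hg19 are named in the submitters' processing notes. Not given in the sources used here are the peak caller, threshold, use of input and combination of replicates. The authors deposited only other values, the starts and ends of peaks on a 50 bp grid, without score or height, so depth is unknown. The deposited files' names pair 2 libraries per antibody and carry the undefined words unireads and scaled. GRCh37 contained every nuclear peak, and GENCODE 44 lifted to it supplied genes and all annotated TSSs. Peaks on chromosome M and genes on chromosome Y were left out of backgrounds. Motif matches on either strand were counted up to 100 bp from centres and inside peaks. Members, lists and the genes named (up to 3 per list, by peaks of both lists together) were chosen with earlier results of these data known. From the list of other architectural proteins 1 gene is not reported here. Bounds, gaps, gene-length classes, element spacing, CA runs, repeated words and composition were described after the values were seen. Python 3.11.15, numpy 2.4.6, pysam 0.24.0 and matplotlib 3.10.9 were used. The counting was tested on simulated data. Alternatives covered distance, width, overlap and motif windows.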

Additional observations from a re-analysis of the deposited data

How the results depend on the processing

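The 12 counts of peaks, shared peaks and peaks with the AP-1 element were recomputed under 60 alternatives, and 54 stayed within 1.5 times the reported count. Those that did not concern HMGA2. Within 10 kb of a TSS or in the gene it had 0 Fra-1 and 0 Fra-2 peaks, and within 200 kb 6 and 5, since the distances above fix which peaks count. With at most 1 mismatch to TGACTCA its peak counted as holding the element in both lists, 1 and 1. At HMGA1 all 3 peaks of each list held the element within 250 bp of the centre or inside the peak, against 2 within 100 bp, and the narrow upstream Fra-2 peak was lost among peaks at least 200 bp wide, which left 2. No paired analysis was possible because each antibody has 1 peak list. Without counts, heights or input, neither the strength of binding nor copy number in this aneuploid line could be examined, and a site without a peak may be bound below the authors' unknown threshold.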
